A study of Mus musculus with 2 samples.

Results

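Lipid-associated macrophages are tissue macrophages that take up and digest lipid and cell debris, and a small set of genes is known to be switched on in them. The 10 genes of such a lipid-associated and tissue-remodelling set, Apoe, Lpl, Trem2, Gpnmb, Cst7, Cd9, Spp1, Mmp12, Ctsd and Fabp5, were followed in pancreatic islet cells of NOD/ShiLtJ mice, which are prone to autoimmune loss of their insulin-producing beta cells. They were chosen by name, with earlier results of these libraries known, and all 10 were found among the 31053 genes that both count tables list. The levels below are therefore a description. The set was defined in macrophages, but by the mean CPM of the 2 libraries only 5 of its 10 genes, Trem2, Gpnmb, Mmp12, Ctsd and Fabp5, were highest in the macrophage-like islet cells, and the other 5 were highest in Schwann-like, fibroblast-like, ductal-like or NK-like cells. Within the 20% HC library alone, Mmp12 was highest in cDC2-like cells, on 5 UMIs, and Cst7 in macrophage-like cells.

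The islets came from 15-week-old wild-type NOD mice on 1 of 2 diets, 16% HC with 4% gluten or 20% HC, where HC is an ingredient the labels do not expand. Each diet had 1 single-cell library (10x Genomics 3' chemistry) made from handpicked islets, with cells of 3 mice pooled. With 1 library per diet there is no spread between animals and no test of a difference, and the 95% intervals given here cover counting error only. Levels are CPM, in which the UMIs (distinct captured RNA molecules) of a gene are summed over all cells of a class and scaled to the summed UMIs of those cells.

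After filtering, 7122 cells with gluten and 7111 cells with 20% HC remained, of which 6643 and 6811 passed a gate on their own markers. A class was kept for 6308 and 6711 of them, mainly those whose cluster of similar cells was of the same broad lineage. The macrophage-like class held 233 cells with gluten and 206 cells with 20% HC. Its 12 fixed markers, which include none of the 10 genes, summed to 24785 CPM with gluten and 25109 CPM with 20% HC, while fibroblast markers summed to 7.34 and 15.3 CPM. Other foreign markers were higher and differed between the libraries. Beta cell markers summed to 8693 CPM with gluten and 20797 CPM with 20% HC, T cell markers to 387 and 239 CPM, and acinar markers to 275 and 58.7 CPM. Ccl8, C1qb, C1qc, Lyz2 and C1qa led the class. Depth differed between the libraries: the median macrophage-like cell held 5765 UMIs with gluten and 12218.5 UMIs with 20% HC, and 77 of 233 against 22 of 206 cells held fewer than 3000 UMIs. Cells with 10 or more UMIs of acinar genes numbered 11 among macrophage-like cells with gluten and 0 with 20% HC. The libraries shared 15 cell barcodes.

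The set falls into a few roles. TREM2 is a receptor of myeloid cells that binds lipids and lipoproteins, among them APOE, and signals through the adaptor TYROBP; apolipoprotein E and lipoprotein lipase carry and split lipid outside the cell, and FABP5 carries fatty acids inside it. Cathepsin D digests protein in the lysosome, cystatin F (Cst7) inhibits lysosomal cysteine proteases, and GPNMB is a glycoprotein of lysosome-rich cells. Macrophage elastase (Mmp12) cuts elastin and other matrix, osteopontin (Spp1) is a secreted matrix protein bound by integrins and CD44, and CD9 is a tetraspanin of the cell surface.

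Promoter windows of the members whose levels set macrophages or the diets apart are shown first. Windows run from 250 bases before to 50 bases after a start in RefSeq (build GRCm38.p6) and were listed for 8 of the 10 members, not for Lpl and Fabp5. Both strands were searched, so that printed capitals may be the reverse complement. The first motif was GAGGAAGT, letters bound by PU.1, a factor of all macrophages, and it stood in 3.2% of all 32851 windows of the table. The E-box motif CACGTG, read by MITF, TFEB and TFE3, which switch on lysosomal genes, stood in 7.15%. The AP-1 motif was TGACTCA and stood in 5.2%, and the TATA box motif was TATAAA and stood in 13.6%. The E-box letters occurred in the Ctsd window at 2 places and in no window of another member. Gpnmb held the AP-1 letters just after its listed start. Mmp12 has 2 listed starts, the first with the PU.1 letters and the second with AP-1 letters before it and TATA letters just after it, from base 5. Spp1, which was low in macrophage-like cells, held the PU.1 and TATA letters in 1 window, and Apoe held TATA letters in 1 window. Counted from the start, these TATA letters began at base -211 in Spp1 and at bases -96 and -100 in Apoe. The windows of Trem2, Cst7 and Cd9 held none of the 4 motifs. The 4 windows with matches in these genes are printed 5′ to 3′ on the gene's strand, with the matched letters in capitals.
Ctsd, chr7:142387778-142388077, minus strand: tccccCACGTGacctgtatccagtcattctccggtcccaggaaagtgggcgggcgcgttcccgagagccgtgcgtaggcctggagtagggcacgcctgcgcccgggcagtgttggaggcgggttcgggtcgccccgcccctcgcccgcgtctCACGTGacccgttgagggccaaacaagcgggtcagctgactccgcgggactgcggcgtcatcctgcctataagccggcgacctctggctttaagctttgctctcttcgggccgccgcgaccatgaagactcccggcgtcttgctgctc
Gpnmb, chr6:49036268-49036567, plus strand: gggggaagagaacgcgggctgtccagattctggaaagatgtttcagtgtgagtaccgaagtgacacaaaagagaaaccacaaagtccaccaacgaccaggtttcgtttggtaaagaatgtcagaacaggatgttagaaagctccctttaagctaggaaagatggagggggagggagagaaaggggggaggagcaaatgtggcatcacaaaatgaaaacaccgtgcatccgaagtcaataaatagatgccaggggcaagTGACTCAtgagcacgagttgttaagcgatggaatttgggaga
Mmp12 first start, chr9:7344147-7344446, plus strand: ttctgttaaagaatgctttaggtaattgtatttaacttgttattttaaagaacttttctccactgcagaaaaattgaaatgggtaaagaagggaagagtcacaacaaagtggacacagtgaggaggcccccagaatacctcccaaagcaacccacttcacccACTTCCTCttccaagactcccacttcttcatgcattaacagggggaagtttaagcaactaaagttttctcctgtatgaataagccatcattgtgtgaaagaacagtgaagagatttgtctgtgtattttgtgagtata
Mmp12 second start, chr9:7347124-7347423, plus strand: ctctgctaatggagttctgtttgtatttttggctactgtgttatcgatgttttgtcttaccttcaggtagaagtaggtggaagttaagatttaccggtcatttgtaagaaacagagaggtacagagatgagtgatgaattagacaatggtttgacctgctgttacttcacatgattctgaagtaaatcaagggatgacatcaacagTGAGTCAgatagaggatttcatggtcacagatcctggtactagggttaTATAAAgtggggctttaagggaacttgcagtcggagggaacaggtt
A match is a run of letters and not a measured site, and no binding data are part of the study.

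The receptor gene Trem2 (chr17:48346401-48354147 in GRCm38, plus strand) was nearly restricted in its summed counts to macrophage-like cells with 20% HC and was shared with fibroblast-like cells with gluten. Macrophage-like cells held 138 CPM (interval 120 to 158) with gluten and 98.5 CPM (86.5 to 112) with 20% HC, from 76 of 233 and 69 of 206 cells with a UMI. They held 61.4% and 96.5% of all Trem2 UMIs of the libraries. No B-like cell had a Trem2 UMI among 1019 cells with gluten and 1169 with 20% HC, which, at 3 counts of the total, allows shares of up to 0.294% and 0.257% of such cells with a UMI. At their median depths of 2144 and 2675 UMIs this does not limit how many express the gene. In monocyte-like cells it was seen as 1 UMI in each library, among 24 and 29 cells.

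Mmp12 (chr9:7344381-7369499, plus strand) was found almost only in the macrophages of the gluten library. Macrophage-like cells held 118 UMIs in 27 of 233 cells with gluten and 3 UMIs in 2 of 206 cells with 20% HC, or 78.7 CPM (65.1 to 94.2) and 1.21 CPM (0.249 to 3.52). The cDC2-like cells held 2 UMIs with gluten and 5 UMIs with 20% HC (4.95 and 8.68 CPM), and no monocyte-like, beta-like or alpha-like cell had one in either library.

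Gpnmb (chr6:49036546-49070929, plus strand) was the other gene centred on macrophage-like cells, with 34.7 CPM (25.9 to 45.5) with gluten and 104 CPM (91.4 to 117) with 20% HC. They held 77.6% and 92.8% of its UMIs. Schwann-like cells came next, with 17.6 CPM (5 UMIs in 42 cells) with gluten and 26.0 CPM (12 UMIs in 38 cells) with 20% HC, and no B-like, cDC2-like or monocyte-like cell had a Gpnmb UMI. Once every cell was thinned to 1500 UMIs, a UMI was kept in 2.26% and 7.06% of macrophage-like cells and in 4.65% and 6.72% of Schwann-like cells, so with gluten the order by share of cells was not the one by CPM.

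Ctsd (chr7:142375911-142388038, minus strand) had UMIs in every class and was highest in macrophage-like cells, at 1272 CPM (1215 to 1330) with gluten and 1651 CPM (1601 to 1703) with 20% HC. NK-like cells followed with 504 and 545 CPM, and fibroblast-like cells with 408 and 410 CPM. Their intervals (397 to 631 and 462 to 638 CPM in NK-like cells) lay below those of macrophage-like cells. Beta-like cells, which are more numerous, held the largest part of all Ctsd UMIs, 32.4% with gluten and 34.4% with 20% HC.

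Fabp5 (chr3:10012548-10016607, plus strand) had its highest summed levels in 2 myeloid classes. Macrophage-like cells held 1912 CPM (1843 to 1983) with gluten and 3189 CPM (3119 to 3260) with 20% HC, and mature DC-like cells, marked by Ccr7 and Fscn1, held 1769 CPM (1643 to 1901) and 1702 CPM (1593 to 1816). With gluten these 2 classes had overlapping intervals. At a common depth of 1500 UMIs, 66.8% and 64.9% of mature DC-like cells kept a Fabp5 UMI, against 32.5% and 41.2% of macrophage-like cells and 1.63% and 1.13% of B-like cells. Schwann-like cells held 553 and 892 CPM and delta-like cells 159 and 314 CPM. The mouse genome holds processed copies of Fabp5, and how the authors assigned reads that match several copies is not given in the sources used here.

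The cystatin F gene Cst7 (chr2:150570415-150578944, plus strand) was shared by macrophages and lymphocytes. NK-like cells held 146 CPM (91.4 to 221) with gluten and 99.1 CPM (65.9 to 143) with 20% HC, T-like cells 88.2 and 72.5 CPM, and macrophage-like cells 51.3 CPM (40.5 to 64.2) and 171 CPM (155 to 188). The order thus differed between the libraries: macrophage-like cells were below T-like cells with gluten and above NK-like cells with 20% HC. The numerous T-like cells held 52.2% and 48.4% of all Cst7 UMIs, and macrophage-like cells 12.8% and 36.8%.

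Apoe (chr7:19696109-19699188, minus strand) was a gene of glia and stroma as much as of macrophages. Schwann-like cells, a class of glia, held 21082 CPM with gluten and 11813 CPM with 20% HC, fibroblast-like cells 13191 and 18248 CPM, and macrophage-like cells 8435 CPM (8288 to 8583) and 7788 CPM (7679 to 7899). Every one of the 170 and 120 fibroblast-like cells and of the 42 and 38 Schwann-like cells had an Apoe UMI, against 177 of 233 and 155 of 206 macrophage-like cells. The median macrophage-like cell held 19.0 Apoe UMIs with gluten and 32.5 with 20% HC, the lower quartile was 1 in both, and the highest cell held 417 and 717. Ductal-like cells held 2957 and 4000 CPM. In pericyte-like cells the level (1414 and 4886 CPM) came largely from single cells, since 1 cell held 85.5% of the Apoe UMIs with gluten and 49.8% with 20% HC, and in plasma-like cells with gluten 1 cell held 95.1%. B-like, T-like and beta-like cells carried 0.312, 0.104 and 0.192 Apoe UMIs per cell with gluten and 0.397, 0.0761 and 0.199 with 20% HC, far below the 54.3 and 94.1 of macrophage-like cells.

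Lpl (chr8:68880491-68907448, plus strand) was hardly found in islet macrophages: 16 UMIs in 14 of 233 cells with gluten and 37 UMIs in 20 of 206 cells with 20% HC, or 10.7 and 14.9 CPM. It was instead a gene of alpha cells and stroma. Fibroblast-like cells held 667 CPM (625 to 711) with gluten and 545 CPM (505 to 588) with 20% HC, and alpha-like cells 488 CPM (476 to 500) and 634 CPM (619 to 650), with a UMI in 1069 of 1122 and 636 of 651 alpha-like cells. The 2 classes changed places between the libraries. Alpha-like cells held 6214 of 10363 Lpl UMIs with gluten and 6297 of 11869 with 20% HC. Beta-like cells held 52.9 and 60.7 CPM.

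Spp1 (chr5:104435118-104441050, plus strand) was a ductal gene here. The 30 and 26 ductal-like cells held 13580 CPM with gluten and 18589 CPM with 20% HC, with a UMI in every cell, and these few cells held 73.5% and 79.5% of all Spp1 UMIs. Macrophage-like cells held 14.7 CPM (9.19 to 22.2) and 27.7 CPM (21.6 to 35.1), with a UMI in 13 cells of each library. At 1500 UMIs a cell, 2.37% and 2.23% of macrophage-like cells kept a Spp1 UMI, against 0.518% and 0.725% of B-like cells. Cd9 (chr6:125460266-125494791, minus strand) was likewise lower in macrophages than in glia and ductal cells: Schwann-like cells held 1821 and 1535 CPM, ductal-like cells 553 and 727 CPM, cDC1-like cells 211 and 204 CPM, and macrophage-like cells 89.4 and 78.4 CPM. Acinar-like cells held less, at 23.2 and 4.14 CPM.

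**Figure D1:**
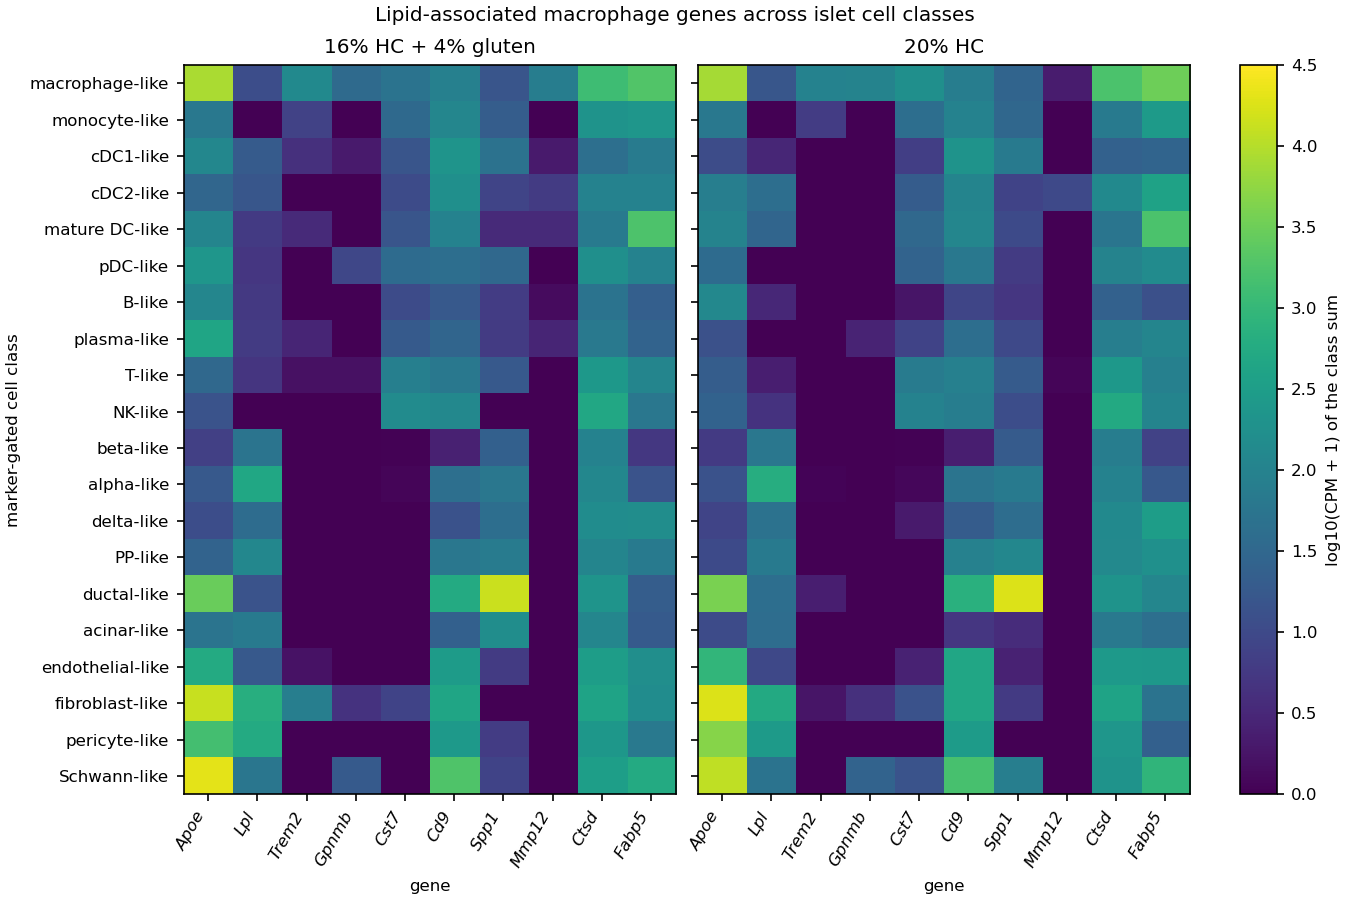
Level of the 10 genes in each marker-gated cell class, as log10(CPM + 1) of the cells summed, with the gluten library on the left and the 20% HC library on the right. Trem2 and Gpnmb peak in macrophage-like cells in both libraries and Mmp12 with gluten, with Trem2 also at 82.6 CPM in fibroblast-like cells with gluten, while Apoe, Cd9 and Spp1 peak in Schwann-like, fibroblast-like or ductal-like cells.

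Genes whose levels over classes were most like each member were sought among 14889 genes, by Pearson correlation of log2(CPM + 1) over 24 class sums (12 classes in 2 libraries, which share their libraries and depths). Classes under 50 cells in a library, among them ductal-like, Schwann-like, NK-like and pericyte-like cells, were not in these sums, so Spp1, Cd9, Apoe and Cst7 were matched without the class where each was highest. For Trem2 they were Gpnmb (r = 0.90), Pdgfc (0.89) and Cxcl13 (0.89), and for Gpnmb they were Tgm1 (0.95), Mag (0.95) and Ccl8 (0.94). For Mmp12 they were Clec4e (0.88), F13a1 (0.88) and Lilrb4a (0.82), and for Cst7 the T cell genes Lag3 (0.96), Cd4 (0.96) and Fyb (0.95). Apoe was nearest to Gas7, Htra1 and Igf1 (0.93, 0.92 and 0.92), Lpl to Deptor, Apod and Zbtb7c (0.89, 0.88 and 0.87), and Cd9 to Capns1, Rassf1 and Zswim4 (0.88, 0.87 and 0.87). Ctsd was nearest to Timp2 (0.89), Hgsnat (0.87) and Itm2b (0.84), Fabp5 to Tmem35b (0.84), Vps35l (0.82) and Ints12 (0.82), and Spp1 to Aldoc (0.86), Zdhhc23 (0.80) and 1700056E22Rik (0.79).

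Between the diets, 9 of the 10 genes were measured in macrophage-like cells, meaning 50 or more UMIs in whichever library had the greater CPM, and Lpl was not. Of these, 1 was at least 2-fold higher with gluten (Mmp12) and 2 were at least 2-fold lower (Gpnmb and Cst7). Among all 4654 measured genes of the class 2.69% were at least 2-fold higher and 2.36% at least 2-fold lower, 5.05% in all. The members' median log2 ratio, gluten over 20% HC, was -0.38, beside -0.10 for all measured genes, and nothing is read from the count, since the members were chosen with such values known.

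For Mmp12, the 78.7 CPM with gluten against 1.21 CPM with 20% HC gave a log2 ratio of 6.03 (interval 4.45 to 8.33), which rests on the 3 UMIs of the second library. One cell with gluten held 29 of the 118 UMIs. The 27 Mmp12-bearing cells with gluten differed from the other 206 in part of the set, at median depths of 5378 and 5835.5 UMIs. Trem2 stood at 460 CPM against 99.4 CPM, Ctsd at 609 against 1351 CPM, and Fabp5 at 62.2 against 2134 CPM. Apoe (7622 against 8532 CPM), Cd9 (112 against 86.7 CPM) and, on few UMIs, Spp1 (18.7 against 14.2 CPM) lay closer. Neither Gpnmb nor Cst7 had a UMI in those 27 cells, while the other 206 held 52 and 77. These UMIs lay in only 14 and 39 of the 206 cells, so the lack of Gpnmb in 27 cells says little. Mmp12 lay mainly in cells of middle depth, with 155 CPM in cells of 3000 to under 10000 UMIs against 2.84 CPM in such cells with 20% HC, and 13.3 against 0.952 CPM in cells of 10000 UMIs or more.

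Gpnmb held 52 UMIs in 14 cells with gluten and 258 UMIs in 30 cells with 20% HC, a log2 ratio of -1.58 (-2.04 to -1.15). Counts were concentrated, with 10 UMIs in the highest cell with gluten and 86, or 33.3% of the total, in the highest with 20% HC; without both cells the log2 ratio was -1.30. Among cells of 10000 UMIs or more it stood at 62.4 CPM with gluten and 109 CPM with 20% HC, a log2 ratio of -0.80 that no longer passed 2-fold. The difference was larger in the other ranges, on few UMIs: 7.73 against 56.7 CPM in cells of 3000 to under 10000 UMIs (5 and 20 UMIs), and 0 against 9 UMIs in cells under 3000 UMIs. Cst7 held 77 UMIs in 39 cells with gluten and 426 UMIs in 68 cells with 20% HC, a log2 ratio of -1.74 (-2.11 to -1.38). Among cells of 10000 UMIs or more it was still more than 2-fold lower, at 69.1 against 191 CPM, while in cells of 3000 to under 10000 UMIs the counts of 21 and 18 UMIs gave 32.5 and 51.0 CPM.

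The more abundant members differed less. Fabp5 stood at 1912 CPM with gluten and 3189 CPM with 20% HC, a log2 ratio of -0.74 (-0.80 to -0.68), and Ctsd at 1272 and 1651 CPM, a log2 ratio of -0.38 (-0.46 to -0.30). Fabp5 differed between depth ranges within each library: cells of 3000 to under 10000 UMIs held 606 CPM (547 to 669) with gluten and 629 CPM (549 to 718) with 20% HC, which overlap, and cells of 10000 UMIs or more held 3145 CPM (3019.6 to 3274) and 3603 CPM (3523 to 3686). Cells under 3000 UMIs held 1074 CPM (880 to 1298) and 4118 CPM (3462 to 4863), from 107 and 139 UMIs, so the level had no single direction with depth and the diets lay farthest apart in the shallowest cells. Such deep cells made up 54 of 233 macrophage-like cells with gluten and 132 of 206 with 20% HC. The part of depth in the summed difference was not tested. Apoe (log2 ratio 0.12), Trem2 (0.49, interval 0.21 to 0.76) and Cd9 (0.19, -0.14 to 0.51) were within 2-fold, as was Spp1 (-0.92, -1.68 to -0.21), of whose 69 UMIs with 20% HC 1 cell held 24. Trem2 stood at 165 CPM (136 to 199.9) with gluten and 218 CPM (172 to 273) with 20% HC at middle depth, and at 104 CPM (81.9 to 129) and 79.9 CPM (68.3 to 93.0) in deep cells, and both pairs of intervals overlap. In cells under 3000 UMIs it stood at 221 CPM (138 to 334, 22 UMIs) with gluten and at 0 UMIs with 20% HC, whose interval reaches 109 CPM.

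**Figure D2:**
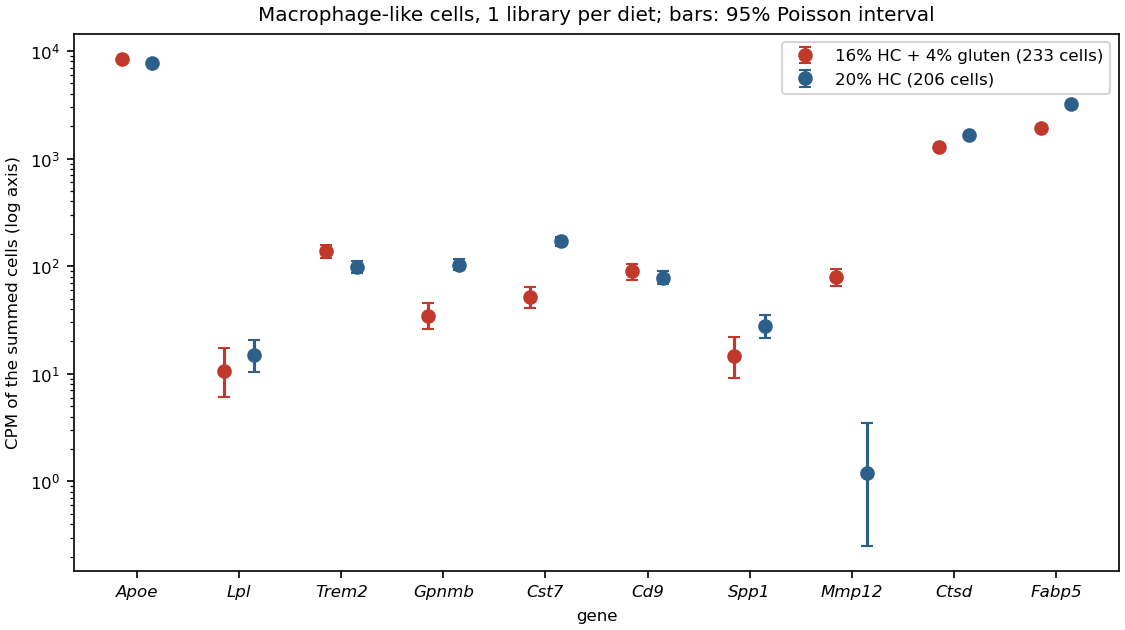
Level of each gene in macrophage-like cells with gluten (left of each pair) and with 20% HC, in CPM on a log axis, with 95% Poisson intervals of the summed UMIs. Mmp12 lies at 78.7 CPM with gluten and 1.21 CPM with 20% HC, while Gpnmb and Cst7 lie lower with gluten and Apoe nearly coincides.

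**Figure D3:**
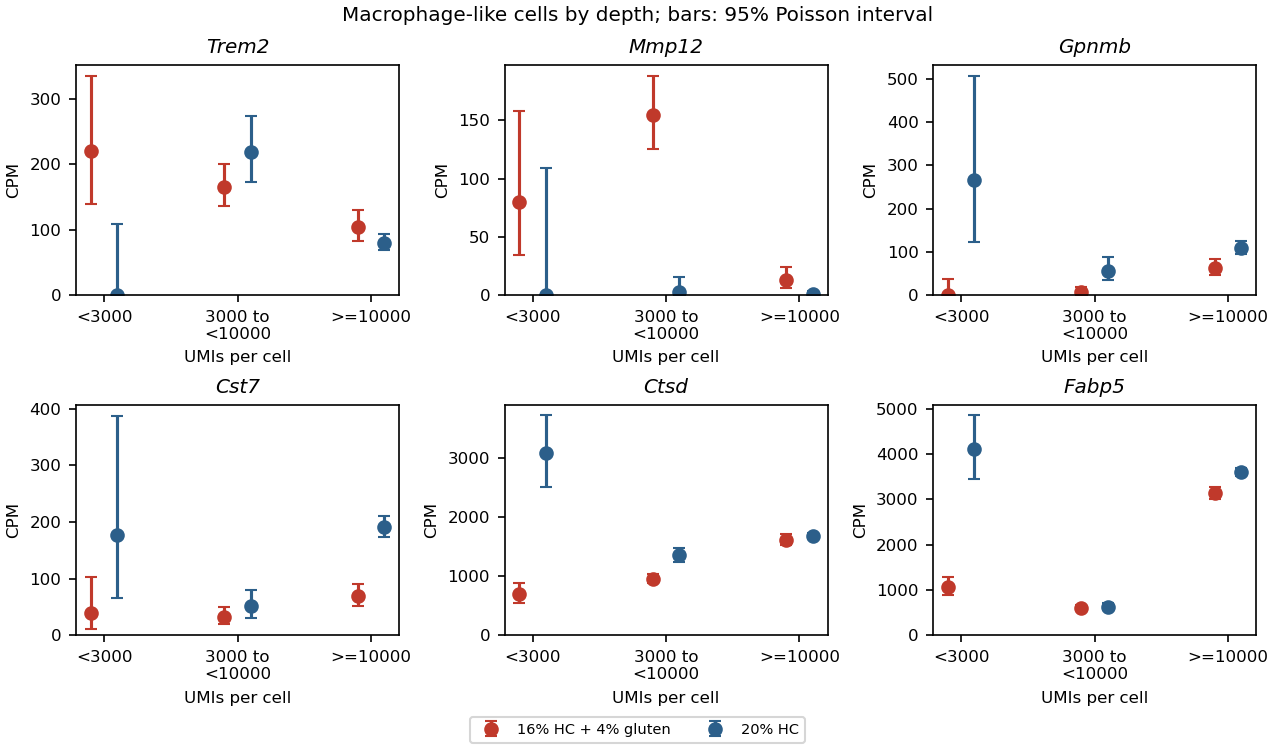
CPM of 6 genes in macrophage-like cells split by UMIs per cell, with gluten left of 20% HC in each range and 95% Poisson intervals. Fabp5 overlaps between diets at middle depth (606 and 629 CPM), Cst7 is lower with gluten in deep cells (69.1 and 191 CPM), and Mmp12 is confined to cells with gluten apart from 3 UMIs.

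Within macrophage-like cells the members did not vary as 1 block. In cells of at least 3000 UMIs, each thinned to 3000 (156 cells with gluten and 184 with 20% HC), Ctsd and Fabp5 had a Spearman correlation of 0.59 with gluten and 0.61 with 20% HC across cells. Gpnmb joined them, with correlations of 0.31 and 0.47 with Ctsd and of 0.31 and 0.45 with Fabp5. Few thinned cells held both genes: 8 with gluten and 18 with 20% HC for Ctsd, and 7 and 18 for Fabp5. Cst7 correlated with Fabp5 at 0.11 with gluten and 0.48 with 20% HC, and with Gpnmb at 0.01 and 0.35; at 77 UMIs in all with gluten, a weak value for it is no finding. Trem2 went with Apoe (0.18 and 0.25), and Mmp12 went with Trem2 with gluten (0.25, on 9 thinned cells with both). Between Trem2 and Cst7 the values were -0.20 and -0.18. Only 0 and 1 thinned cells held UMIs of both, and Cst7 had few UMIs with gluten, so no relation is read from these 2 values. Cells of 1 library share their source, so these values describe the libraries.

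**Figure D4:**
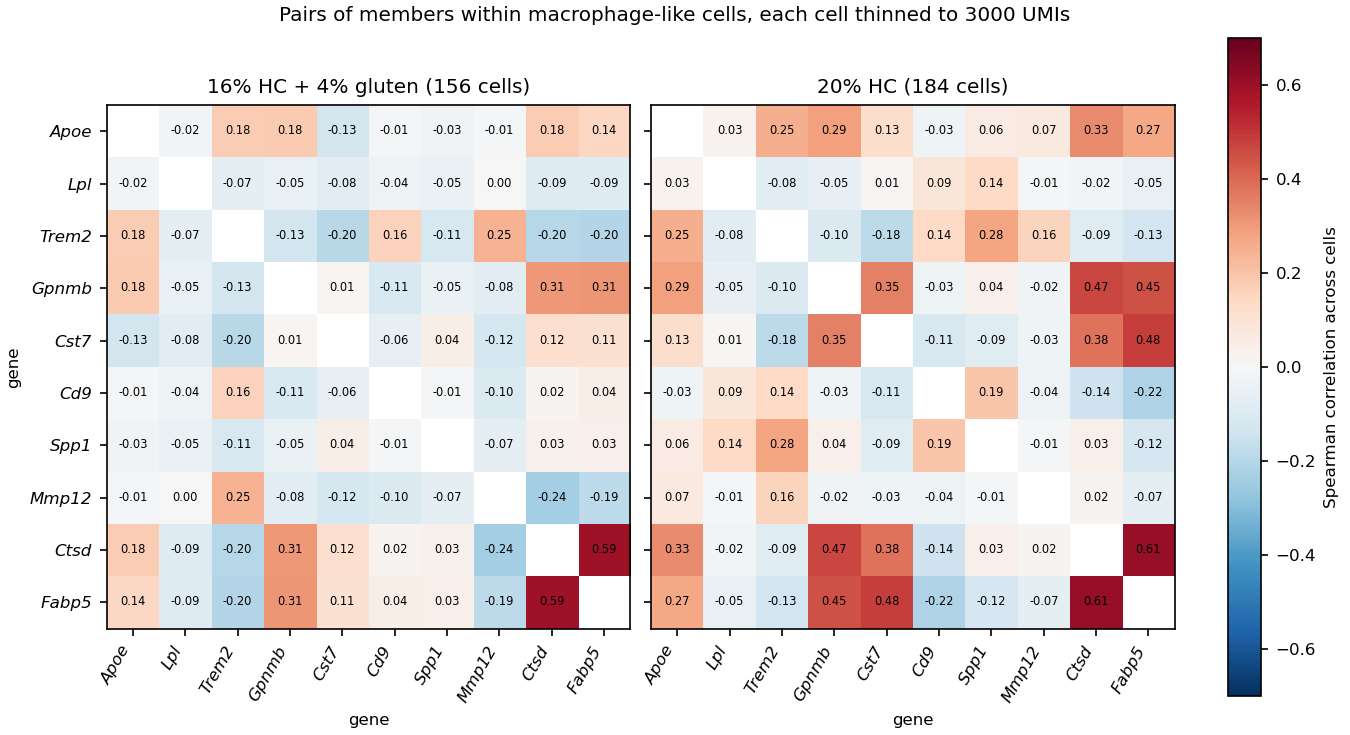
Spearman correlation between each pair of genes across macrophage-like cells thinned to 3000 UMIs, with gluten on the left and 20% HC on the right. Ctsd and Fabp5 have the highest value in both libraries (0.59 and 0.61), with Gpnmb beside them, and Trem2 and Mmp12 are on the negative or weak side of that group with gluten.

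Most other genes of the same pathways lay within 2-fold in macrophage-like cells, as did all but 5.05% of measured genes, so nothing particular to a list is read from its counts. Of 19 further genes of the lipid-associated programme 16 were measured, with 2 at least 2-fold higher and 1 at least 2-fold lower with gluten and a median log2 ratio of 0.03. The lipid droplet coat gene Plin2 stood at 262 CPM with gluten and 130 CPM with 20% HC (log2 ratio 1.01, at the 2-fold limit) and the chemokine gene Ccl6 at 107 and 47.0 CPM (1.18). Fabp4, a fatty acid carrier of fat cells and macrophages, held 7 UMIs with gluten and 88 UMIs with 20% HC (-2.92, interval -4.28 to -1.82). All 9 measured genes of TREM2 signalling lay within 2-fold, from -0.83 to -0.06 with a median of -0.34. None of 23 measured lysosomal proteases and proteins passed 2-fold (-0.77 to 0.52), nor did any of 13 tetraspanins and CD9 partners (-0.52 to 0.58), 6 melanosome and MITF relatives of Gpnmb (-0.80 to 0.96), 5 osteopontin receptors (-0.23 to 0.51), 3 lipoprotein lipase partners (-0.39 to 0.40) or 2 cystatins (-0.06 and 0.58).

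Among the 14 measured genes of lipoprotein uptake and cholesterol efflux only Plin2 passed 2-fold, and the list's median was -0.32. Of 22 matrix metalloproteinases and inhibitors just 4 were measured, and 1, the urokinase gene Plau, was at least 2-fold higher with gluten, at 37.3 against 15.7 CPM (1.25). Of 7 measured genes of fatty acid binding and PPAR, Hilpda, a lipid droplet gene, was higher at 53.4 against 21.7 CPM (1.30), and Fabp1 (12.0 against 27.3 CPM, -1.19) and Fabp4 were lower.

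Outside macrophages, 2-fold was passed in fibroblast-like, cDC1-like, cDC2-like, PP-like and B-like cells. In fibroblast-like cells 2 of 6 measured members were at least 2-fold higher with gluten, Trem2 and Fabp5, where 3.07% of 4303 genes were. Trem2 held 117 UMIs in 12 of 170 cells with gluten and 1 UMI in 1 of 120 cells with 20% HC (82.6 and 0.797 CPM, log2 ratio 6.70, interval 4.19 to 12.01). Fabp5 held 214 UMIs with gluten and 63 UMIs with 20% HC (log2 ratio 1.59, 1.18 to 2.02), and 184 of the 214 were in those same 12 cells, while 34 of the 63 were in 1 cell.

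The 12 Trem2-bearing fibroblast-like cells were looked at after their values were seen. They held 1 to 29 Trem2 UMIs each, at a median depth of 13268.5 UMIs against 7457.5 UMIs in the other 158. Of the stromal genes, Dcn stood at 8077 CPM against 8327 CPM in the other cells, Col3a1 at 2625 against 2655 CPM and Col1a2 at 1711 against 2560 CPM. Cxcl13, a B cell-attracting chemokine gene of lymphoid stroma that is also among the 10 leading genes of the macrophage-like class here, stood at 8854 CPM against 197 CPM, Fabp5 at 1193 against 23.8 CPM, Fabp4 at 551 against 1.58 CPM, and Wnt4 at 583 against 40.4 CPM, and Apoe and Lpl were lower, at 4732 against 14225 CPM and 130 against 733 CPM. Not all 12 cells shared these genes: Cxcl13 was in 10 of them and Fabp4 in 8. Cr2, also looked at, held 36 UMIs in 1 of the 12 cells, and 1 cell held 420 of the 518 Clu UMIs. The 12 macrophage markers summed to 1387 CPM in the 12 cells against 296 CPM in the other 158. A UMI of these markers was in 6 of the 12 cells, 183 of their 214 UMIs were in 1 cell, Adgre1 and Csf1r were at 0 in all 12, and Tyrobp was in 4. The marker C1qa was in 2 of the 12 cells, with 70 UMIs in a cell of 2 Trem2 UMIs and 1 UMI in a cell of 16. Over the whole class the markers summed to 414 CPM with gluten and 1140 CPM with 20% HC. Their part in the Trem2 result was not tested.

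Fabp5 passed 2-fold in further classes, in both directions. In cDC1-like cells, where 2 of 4 measured members were at least 2-fold higher with gluten (background 3.23% of genes), Fabp5 held 69 UMIs with gluten and 27 UMIs with 20% HC (log2 ratio 1.48), but 34 of the 69 were in 1 cell and the log2 ratio without the highest cells was 0.80. It turned to -0.33 with every cell thinned to 1 depth and to -0.43 with classes taken from clusters. The cluster taken as cDC1 was a broader group, with 295 cells against the 156 gated ones and the mature DC marker Fscn1 among its leading genes. No cluster was named for mature DC-like cells, in which Fabp5 was high. Apoe, the other member that passed 2-fold here, held 111 UMIs with gluten, 75 of them in 1 cell, and 10 UMIs with 20% HC (3.60, interval 2.67 to 4.70). Macrophage markers stood at 505 and 199 CPM in the same cells, and their part in the result was not tested.

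In cDC2-like cells 1 of 3 measured members was at least 2-fold lower with gluten (background 2.96%), Fabp5, at 98.9 against 391 CPM (log2 ratio -1.98, -2.50 to -1.49), and this turned to 0.49 with classes taken from clusters. The cluster taken as cDC2 held 327 cells against the 107 gated ones, so that value is for a broader group. In PP-like cells 1 of 5 was at least 2-fold lower with gluten (background 0.874%), again Fabp5, at 69.6 CPM with gluten and 180 CPM with 20% HC (-1.37, -1.71 to -1.04). Delta-like cells lay just inside the limit, with Fabp5 at 159 and 314 CPM (-0.98). The PP-like class had the delta markers Sst and Rbp4 among its 10 leading genes. Of its cells, 20 of 114 with gluten and 14 of 65 with 20% HC lay near the cut of the gate. The part of delta signal in the PP-like value was not tested. In B-like cells 1 of 3 was at least 2-fold higher with gluten (background 2.22%), Ctsd, at 51.3 and 24.3 CPM (1.08), which fell to 0.67 with doublet-scored cells kept, 0.74 with cells thinned and 0.71 with cells weighted equally. T cell markers in the B-like cells stood at 637 CPM with gluten and 83.1 CPM with 20% HC, and their part in it was not tested.

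No measured member passed 2-fold in mature DC-like, T-like, beta-like, alpha-like, delta-like or endothelial-like cells, where 8.46%, 4.4%, 2.0%, 2.35%, 1.91% and 2.61% of all measured genes did. In alpha-like cells, the main source of Lpl, 488 CPM with gluten against 634 CPM with 20% HC gave a log2 ratio of -0.38 (-0.43 to -0.33). In fibroblast-like cells the Apoe log2 ratio was -0.47 (-0.50 to -0.44). In endothelial-like cells Apoe stood at 554 and 929 CPM (-0.75), of which 1 cell with 20% HC held 420 of 1123 UMIs, and without the highest cells the log2 ratio was -0.20.

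**Figure D5:**
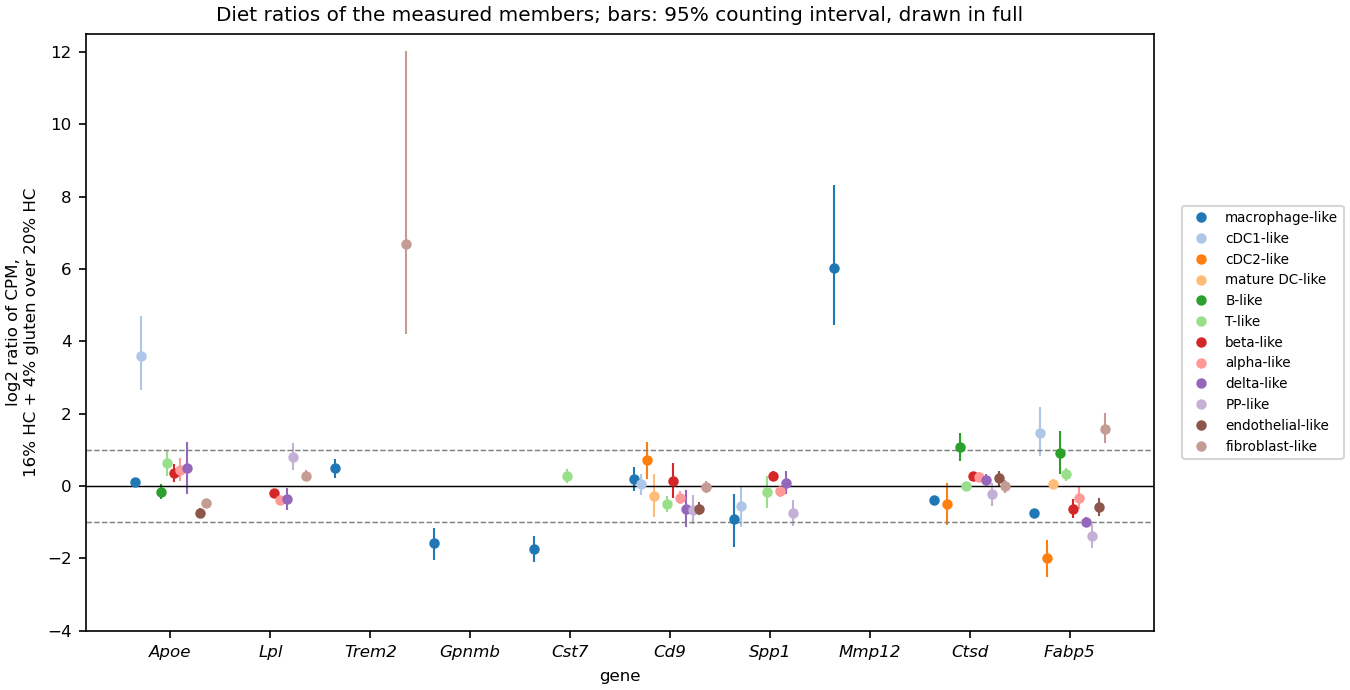
Log2 ratio of CPM, gluten over 20% HC, for each measured gene in each compared class, with 95% counting intervals and dashed lines at 2-fold. Mmp12 in macrophage-like cells (6.03) and Trem2 in fibroblast-like cells (6.70) lie highest, and Fabp5 is the gene with points beyond both dashed lines.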

How the data were processed

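UMI counts per gene and cell were deposited by the authors, 1 matrix per diet, made with Cell Ranger 4.0.0 on mm10, per the submitters' processing notes; the annotation release is not given in the sources used here. The matrices held 8200 barcodes and 88268070 UMIs with gluten and 7758 barcodes and 116900677 UMIs with 20% HC.

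Barcodes under 500 UMIs or 200 genes, or with a mitochondrial share above 20%, were dropped, and the 6% with the highest Scrublet doublet score of each library were removed (455 and 454 cells), since the caller's own threshold marked 5 and 267 cells. Classes were gated on fixed markers that include no member (scanpy 1.11.5, Python 3.11.15). A gated cell kept its class only if its Leiden cluster, formed without the members, was of the same broad lineage. A class also needed at least 2 of its own markers among its 10 leading genes. Counts were summed per class, CPM were given exact Poisson intervals, ratios exact conditional binomial intervals and shares Clopper-Pearson intervals (scipy 1.17.1); the ratio interval was tested on simulated data. UMIs of 1 cell are not independent, so intervals cover counting error only. A gene was measured with 50 UMIs or more in the library of higher CPM, and a class was compared between diets with 50 cells or more in each library. The class where a member was highest was taken by the mean CPM of both libraries. TMM scaling used edgeR 4.0.16.

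The members, lists and tests were chosen with earlier results of these data known. From each pathway list the text names measured genes at least 2-fold apart in macrophage-like cells, at most 4 a list, and for each member the 3 genes most like it. Depth ranges, the marker gate alone and leaving out the highest cell were added after seeing the data.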

Additional observations from a re-analysis of the deposited data

Results flagged for a closer look

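Fabp5 moved in opposite directions in different classes between the diets. Its log2 ratio, gluten over 20% HC, was 1.48 in cDC1-like cells and 1.59 in fibroblast-like cells, and -1.98 in cDC2-like cells and -1.37 in PP-like cells. The difference between classes was not tested, since each diet had 1 library, and the values in cDC1-like and cDC2-like cells turned sign under other ways of forming the classes or treating depth. The clusters used in place of these 2 classes were broader groups, with 295 cells against 156 and 327 cells against 107. In fibroblast-like cells 184 of the 214 Fabp5 UMIs with gluten lay in the 12 Trem2-bearing cells, and 34 of 63 with 20% HC lay in 1 cell. The cells without Trem2 held 23.8 CPM with gluten (158 cells) and 51.3 CPM with 20% HC (119 cells). The higher value in that class thus rests on few cells.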

How the results depend on the processing

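No paired analysis was possible because each diet had 1 library, and no replicate could be left out. Of 611 alternative values of the 60 member ratios, 534 moved by less than their counting interval, 74 moved further and 3 were counted as reversed. The reversed were Fabp5 in cDC1-like cells, at -0.43 with classes from clusters and -0.33 with each cell thinned to 1 depth, and Fabp5 in cDC2-like cells, at 0.49 with classes from clusters. This count does not hold every change of sign. For example, Spp1 in cDC1-like cells went from -0.55 to 0.39 without the highest cells. The cause was not tested. Classes from clusters gave 53 of the 60 values, and the clusters taken as cDC1 and cDC2 held more cells than the gated classes.

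In macrophage-like cells 235 genes were at least 2-fold apart. The count was 1013 with genes of 10 UMIs or more, 3160 with no filter on low counts, 745 at 1.5-fold, 373 with each cell weighted equally and 97 in cells of 3000 to 10000 UMIs; the cause was not tested. Members at least 2-fold higher numbered 0 in cells of 10000 UMIs or more, where Mmp12 fell under the count minimum, instead of 1. Members at least 2-fold lower numbered 4 at 1.5-fold and 0 in cells of 3000 to 10000 UMIs, instead of 2; there Gpnmb (7.73 against 56.7 CPM) and Cst7 (32.5 against 51.0 CPM) fell under the count minimum. Members highest in macrophage-like cells numbered 3 by share of cells at 1 depth, instead of 5. Counts of 52, 77 and 22 UMIs limit the precision of Gpnmb, Cst7 and Spp1 in macrophage-like cells with gluten.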
